A study of Danio rerio with 6 samples.

Results

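Glutathione and redox defence genes were described in whole kidney marrow of wild-type zebrafish and of zebrafish that overexpress hoxa9 and meis1. Members were picked by gene name alone: the glutathione S-transferases (GST), glutathione peroxidases, peroxiredoxins, thioredoxins and proteins named after them, superoxide dismutases, catalase, the enzymes that make and recycle glutathione, Nqo1, Srxn1 and Keap1. The rule found 68 of the 32057 rows of the count table. Of these, 67 had at least 1 count and 61 passed the filter on low counts and were tested.

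Glutathione is a small thiol that cells use to reduce peroxides and to tag reactive compounds for export. GSTs carry out the tagging, and the liver and the kidney proximal tubule are known for high levels of them. Peroxiredoxins, glutathione peroxidases and catalase remove peroxides, thioredoxin and its reductase return oxidized peroxiredoxins to their active form, and the Keap1 protein holds back Nrf2, the transcription factor that switches many of these genes on. In blood-forming tissue the same enzymes protect red cells and oxidant-producing myeloid cells.

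RNA was sequenced from kidney marrow blood cells of WT fish of the AB strain and of Tg(drl:hoxa9;hsp70:meis1) fish (Tg), with 3 libraries per genotype. Each library held cells pooled from 3 kidneys. By the labels and the methods the fish were 5 months old, while the study's results state a younger age. In Tg, myc-tagged hoxa9 was driven by the draculin (drl) element, which is active in cells derived from the lateral plate mesoderm, blood cells included, and meis1b by the heat shock promoter hsp70, which is active in any heated cell. The heat shock schedule of the sequenced fish is not given in the labels, and no library with a single transgene was analysed here.

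Libraries held 50767535 to 64888212 counts, of which the members took 0.551 to 0.659%. All 19 erythroid and all 12 neutrophil genes matched from lists of cell markers were above 1 CPM in every library. So were 31 of 35 kidney tubule genes. CPM are counts scaled to library size and its TMM factor. The summed level of the tubule list was 7981, 2869 and 3220 CPM in WT replicates 1, 2 and 3 and 2078, 2571 and 2082 CPM in the Tg replicates. WT replicate 1 therefore stood apart. Some of the blood cell lists also differed between the genotypes. Of 12 neutrophil genes tested, 10 had a positive log2 fold change and 7 were higher in Tg without overlap (median 0.71, none past the FDR in edgeR's quasi-likelihood test, 9 higher at an unadjusted p under 0.05, 5 higher past the FDR of DESeq2), while the list's sums overlapped, at 13510 to 22850 CPM in WT and 19030 to 32130 CPM in Tg. Of 16 genes of haematopoietic stem and progenitor cells (HSPC), 5 were higher past the FDR in edgeR's quasi-likelihood test, among them MEIS1, whose row can hold transgene reads, and 8 were higher without overlap (median 0.56). Of the same 16 HSPC genes, 5 had a negative log2 fold change. Of 16 macrophage genes, 11 were negative, and 5 were lower and 1 higher without overlap (median -0.19). The 1 higher gene, csf1rb, also passed the FDR in edgeR's quasi-likelihood test (log2 fold change 1.15, FDR = 0.0345). Of 17 lymphoid genes, 3 were negative and 5 were higher without overlap (median 0.24). None of the 19 erythroid genes was without overlap (median 0.05), and the list's sums were 20370 to 37420 CPM in WT and 15100 to 36330 CPM in Tg. Over all genes tested, 14.1% were lower and 14% higher without overlap. The lists were chosen with earlier results of these data known. From the same libraries, the study had reported gata2b, meis1b, angpt1, csf1rb and mmp9 as higher in Tg. Their place in these lists is thus not independent of the data. The part of these blood cells in the members' values was not tested. Liver genes stood out in WT replicate 3 (1175 CPM summed, against 68.8 to 143.5 CPM in the other libraries) and oocyte genes in Tg replicate 1 (1624 CPM, against 66.0 to 736.9 CPM), although only 6 of 21 liver genes and 1 of 17 oocyte genes were above 1 CPM in every library. Of 14 liver genes tested, 13 were negative and 2 were lower without overlap (median -3.65). None passed the FDR in edgeR's quasi-likelihood test, and of 7 with an adjusted p from DESeq2, 1 was lower past its FDR (apoa2). Of 16 oocyte genes tested, 2 were negative and none was without overlap (median 0.67).

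Of the 61 members tested, 1 was called lower in Tg and none higher by edgeR's quasi-likelihood test, where a call took at least a 2-fold change and an FDR below 0.05. Over all 20123 genes tested, 0.363% were called lower and 0.199% higher. The FDR alone gave the same 1 and 0 members, against 0.373% and 0.224% of all genes. At an unadjusted p under 0.05 stood 12 lower and 5 higher members, against 10.8% and 9.07% of all genes. For 14 members, 23.0%, all 3 Tg values lay under all 3 WT values, and for 5 members, 8.2%, they lay above (3 members with RLE size factors), while over all genes these shares were 14.1% and 14%. The median log2 fold change (Tg minus WT) was -0.13 over the members and 0.01 over all genes.

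By enzyme class, 8 of the 14 members that were lower without overlap were GSTs of the cytosolic, kappa or membrane kind. These kinds made up 13, 2 and 5 of the 61 members tested. Among the cytosolic GSTs 9 of 13 tested, 69.2%, had a negative log2 fold change, against 60.7% of all members and 49.1% of all genes. Of these 13, 6 were lower without overlap, against 14.1% of all genes. The class median was -0.50 for the glutathione peroxidases, -0.48 for the kappa GSTs and -0.34 for both the cytosolic GSTs and the thioredoxin reductases. It was -0.19 for the peroxiredoxins with sulfiredoxin, -0.15 for the membrane GSTs and -0.05 for the superoxide dismutases. The enzymes that make and reduce glutathione had a median of 0.02, Keap1 0.08, other proteins with a thioredoxin fold 0.15 and the thioredoxins 0.21. Catalase, the quinone reductase and TXNIP had 1 row tested each, the thioredoxin reductases 3 and the glutathione peroxidases 6. A median weighs rows with few counts as much as the others. Summed over all rows, the glutathione peroxidases were at 422.5 ± 66.99 CPM in WT and 418.9 ± 68.1 CPM in Tg (SD, n = 3). Thioredoxin reductases were at 299.6 ± 32.6 and 340.6 ± 18.95 CPM. Membrane GSTs were at 140.4 ± 27.7 and 150.6 ± 24.55 CPM, and kappa GSTs at 33.9 ± 9.1 and 19.95 ± 2.63 CPM. The 95% interval of the fold change lay within a 2-fold change either way for 32 of the 61 members, and for 14 of the 17 with a mean of at least 100 CPM in both genotypes.

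**Figure D1:**
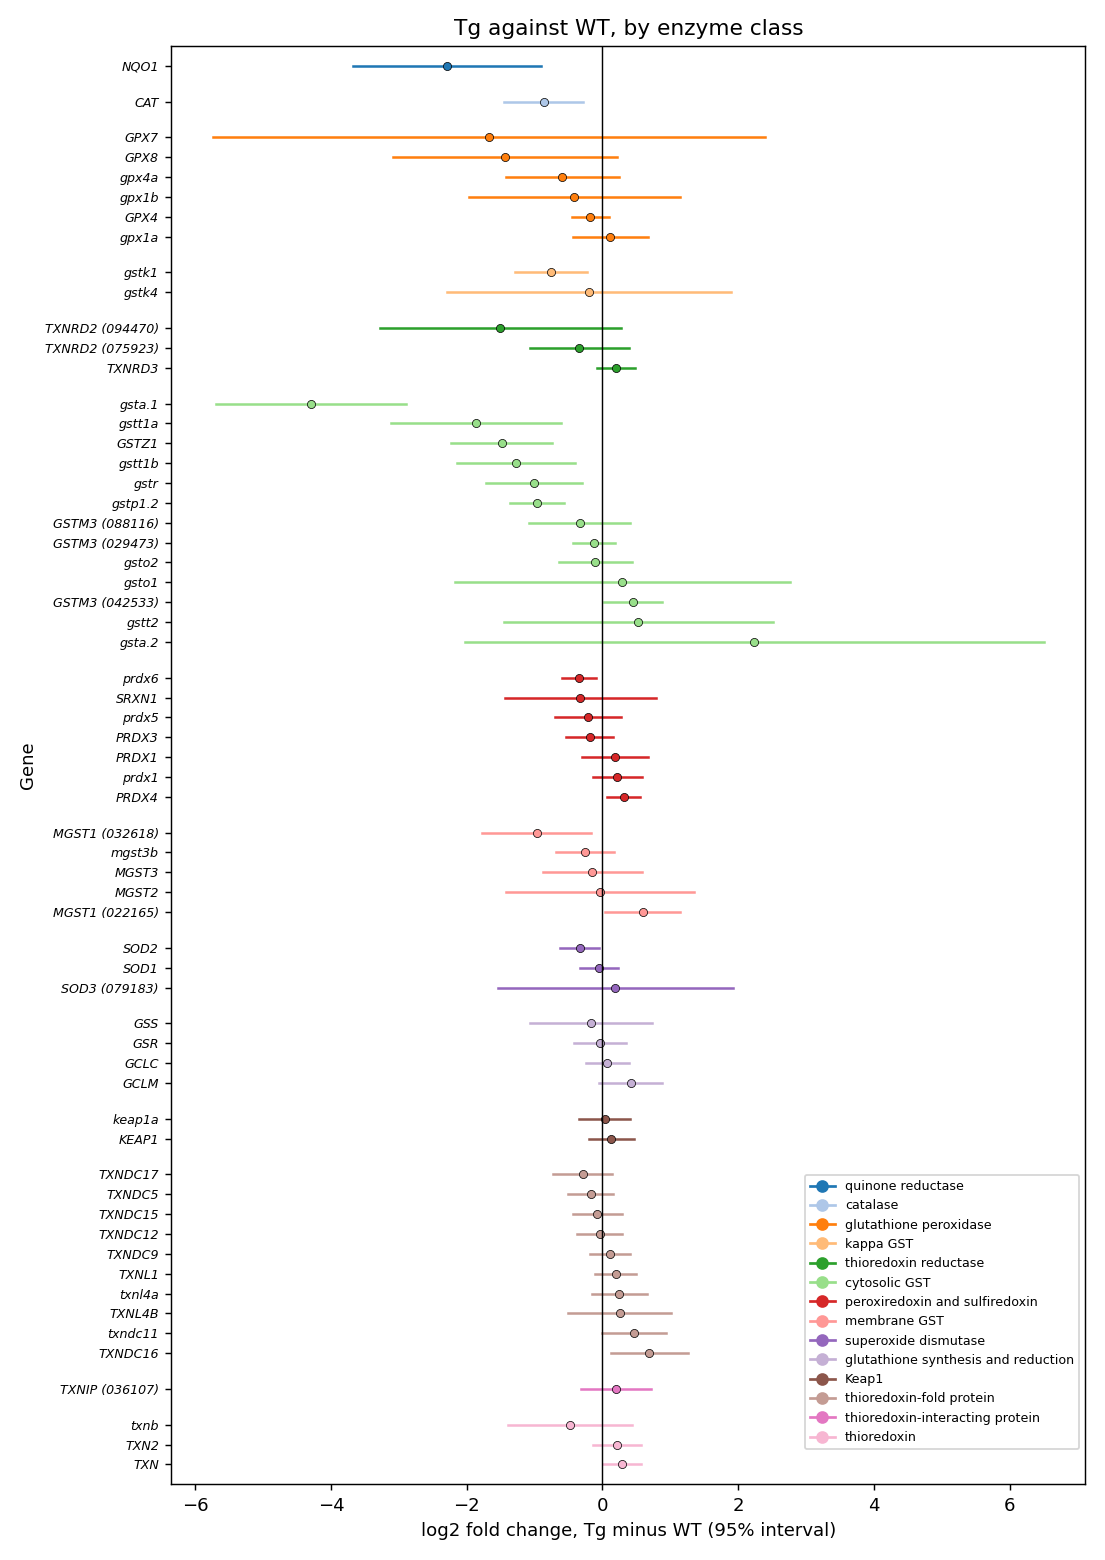
Each point is the log2 fold change (Tg minus WT, x axis) of 1 of the 61 members tested, with its 95% interval as a line, grouped and coloured by enzyme class, and rows that share a symbol carry the last digits of their gene ID. gsta.1 at -4.30 is the only member called, most thioredoxin and peroxiredoxin rows lie near 0, and the widest intervals belong to rows with few counts such as gsta.2 and GPX7.

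gsta.1 encodes an alpha-class GST, the class that conjugates glutathione to lipid peroxidation products. It read 32.8, 12.8 and 19.6 CPM in the WT replicates and 1.93, 0.546 and 0.835 CPM in the Tg replicates. The lowest WT pool thus lay above the highest Tg pool with a wide gap, and WT replicate 1 was the highest. The mean fell from 21.7 ± 10.2 to 1.103 ± 0.73 CPM (SD, n = 3 pools each), which is -4.30 on the log2 scale (standard error 0.59, 95% interval -5.69 to -2.90, FDR = 0.0418 in edgeR's quasi-likelihood test). In bulk samples, fewer cells of a type and less RNA per cell cannot be told apart. The call did not hold when WT replicate 1, 2 or 3 or Tg replicate 2 or 3 was left out (FDR 0.0699, 0.0805, 0.122, 0.13 and 0.183 in edgeR's quasi-likelihood test) and held without Tg replicate 1 (0.0397), with log2 fold changes of -4.97 to -3.87. Its neighbour gsta.2, with 1 protein-coding gene between them in RefSeq, was close to the detection limit, at 28, 0 and 0 counts in WT and 75, 24 and 31 counts in Tg.

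The pi-class gene gstp1.2 had the second smallest p of the members. It read 213.5, 177 and 202.5 CPM in WT against 79.7, 119.8 and 103.5 CPM in Tg, so that the WT pools were close together and all Tg pools lay under them. Its log2 fold change was -0.97 (standard error 0.17), with an FDR of 0.0683 in edgeR's quasi-likelihood test, and -0.91 without WT replicate 1. The FDR was 0.0414 with scaling to library size alone and 0.046 in the newer form of the edgeR test. Its tandem neighbour gstp1.1 had 4 counts in all, in WT replicate 1, and was not tested. Both genes lie side by side in RefSeq, and the sources used here do not say how the counting treated near-identical copies.

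GSTZ1, the zeta-class enzyme that isomerizes maleylacetoacetate in tyrosine breakdown, read 15.7, 10.6 and 10.8 CPM in WT against 3.63, 6.12 and 3.49 CPM in Tg. The genotypes did not overlap, at a log2 fold change of -1.49 (standard error 0.32, FDR = 0.0865 in edgeR's quasi-likelihood test). gstr, of the rho class known from fish, read 346.6, 151.2 and 198.5 CPM in WT against 98.0, 129.4 and 118.1 CPM in Tg. WT replicate 1 was far above the other WT pools, and WT replicate 2 lay only just above the highest Tg pool. The log2 fold change was -1.01 (standard error 0.30, FDR = 0.14 in edgeR's quasi-likelihood test) with all libraries and -0.60 without WT replicate 1.

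The theta-class genes showed the same lean on WT replicate 1. gstt1a read 147.1, 41.3 and 39.96 CPM in WT against 16.6, 26.6 and 19.6 CPM in Tg. The genotypes did not overlap, but the log2 fold change of -1.86 (standard error 0.53, FDR = 0.133 in edgeR's quasi-likelihood test) was -0.96 without WT replicate 1. gstt1b read 14.8, 7.06 and 9.997 CPM in WT against 3.13, 4.08 and 5.93 CPM in Tg, also with no overlap (log2 fold change -1.28, FDR = 0.136 in the same test). The third theta gene, gstt2, read 17.1, 2.90 and 1.54 CPM in WT against 13.9, 10.7 and 6.49 CPM in Tg. Here the genotypes overlapped because of WT replicate 1, and the log2 fold change moved from 0.53 (95% interval -1.45 to 2.51) to 2.22 without that pool (FDR = 0.117 in edgeR's quasi-likelihood test).

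**Figure D2:**
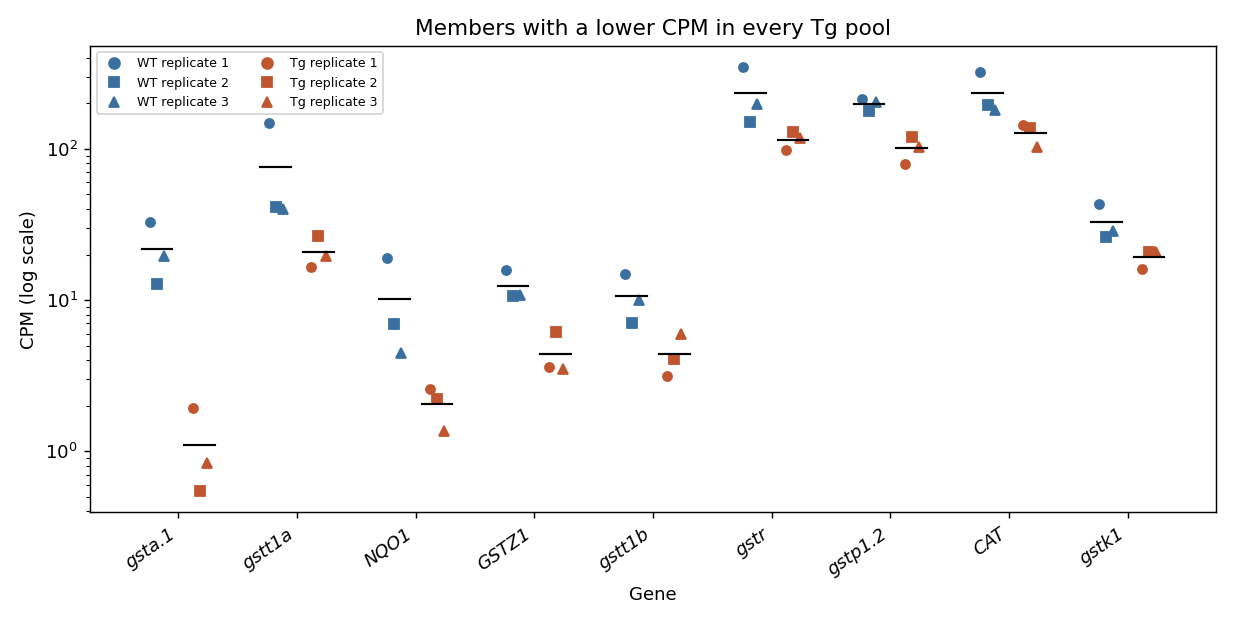
CPM on a log scale (y axis) of 9 members, picked from the 14 with a lower value in every Tg pool, by gene. WT is in blue and Tg in orange, with 1 symbol per replicate number and a line at the mean of 3 pools. WT replicate 1 is the highest WT pool for all 9, and gsta.1 has the widest gap, from 12.8 CPM in the lowest WT pool to 1.93 CPM in the highest Tg pool. Not shown are GPX8, prdx6 and the TXNRD2 row ENSDARG00000094470, where WT replicate 1 is not the highest WT pool. SOD2 and the MGST1 row ENSDARG00000032618, where it is, are not shown either.

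No mu-class GST was lower in every Tg pool. The name table gives the symbol GSTM3 to 3 rows, and RefSeq lists gstm.1, gstm.2 and gstm.3 side by side, so how reads were divided among the copies is uncertain. The row ENSDARG00000042533 read 140.6, 136.7 and 163.7 CPM in WT against 156.9, 196.8 and 249.5 CPM in Tg. Only Tg replicate 1 fell within the WT range (log2 fold change 0.45, 95% interval 0.02 to 0.88, FDR = 0.233 in edgeR's quasi-likelihood test). The second row (ENSDARG00000029473) had 122.4 ± 7.84 CPM in WT and 112.1 ± 15.2 CPM in Tg, and the third 5.92 ± 1.01 and 4.69 ± 1.38 CPM. The omega gene gsto2, whose class reduces dehydroascorbate, had 46.9 ± 7.31 and 43.6 ± 11.6 CPM, and its tandem neighbour gsto1 under 1.5 CPM in every library.

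The make-up of the cytosolic GST counts differed accordingly. The summed level was 880.8 ± 188.8 CPM in WT and 620.3 ± 96.2 CPM in Tg (SD, n = 3), at 1090, 724 and 828.1 CPM in the WT replicates and 509.3, 675.8 and 676 CPM in the Tg replicates, which do not overlap. The GSTM3 row ENSDARG00000042533 made up 12.9, 18.9 and 19.8% of these counts in WT and 30.8, 29.1 and 36.9% in Tg. gstr took 20.9 to 31.8% in WT and 17.5 to 19.2% in Tg, gstp1.2 took 19.6 to 24.5% and 15.3 to 17.7%, and gsta.1 1.76 to 3.01% and 0.0807 to 0.379%. None of these 4 ranges overlapped. These are shares of counts, not corrected for transcript length, and no test was made of them. Shares within a library are tied, so lower counts of some rows raise the share of the rest. The CPM of this GSTM3 row overlapped between genotypes.

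**Figure D3:**
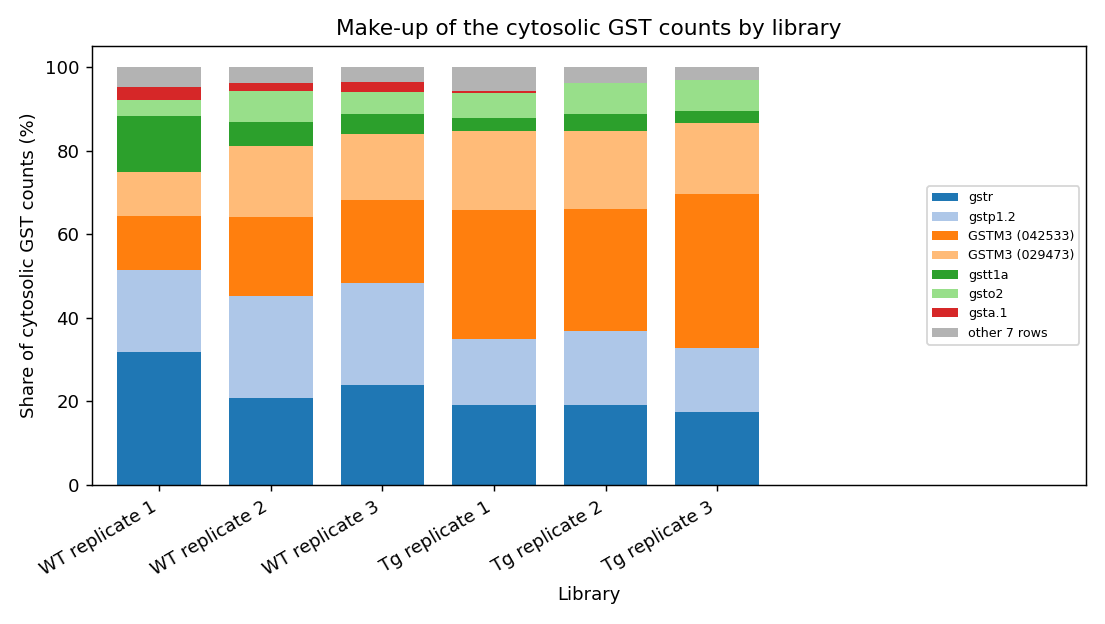
Stacked bars show the share of all cytosolic GST counts (%, y axis) taken by each gene in each library (x axis), with the 7 rows of lowest counts added together. The band of the GSTM3 row ENSDARG00000042533 takes 12.9 to 19.8% in the WT libraries and 29.1 to 36.9% in the Tg libraries, while the bands of gstr, gstp1.2 and gsta.1 are narrower in Tg.

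The kappa GSTs are mitochondrial and peroxisomal enzymes that form a class apart from the cytosolic ones. gstk1 read 43.0, 26.0 and 28.8 CPM in WT against 16.0, 20.9 and 20.8 CPM in Tg. The genotypes did not overlap, with a log2 fold change of -0.76 (standard error 0.23, FDR = 0.142 in edgeR's quasi-likelihood test). gstk2 had 38, 2 and 46 counts in WT and 0 in every Tg library, which did not pass the filter. Taking 3 counts per library as the limit that a count of 0 allows, its mean was at least 8.55-fold lower in Tg, a bound that covers counting error only and rests on WT replicates 1 and 3. gstk4, which lies next to gstk1, had 8 to 75 counts per library with no separation of the genotypes.

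The membrane-bound GSTs, which protect membranes from lipid peroxides, went apart. The symbol MGST1 stands for 2 rows. The row ENSDARG00000022165 read 51.9, 40.3 and 57.0 CPM in WT against 52.9, 77.1 and 94.8 CPM in Tg, with Tg replicate 1 inside the WT range (log2 fold change 0.59, 95% interval 0.04 to 1.15). The row ENSDARG00000032618 read 6.68, 4.23 and 5.17 CPM in WT against 2.44, 3.46 and 2.303 CPM in Tg, with no overlap (log2 fold change -0.97, 95% interval -1.77 to -0.17). The FDR was 0.232 and 0.186 in edgeR's quasi-likelihood test, and whether the difference between the rows is itself beyond error was not tested. MGST3 and mgst3b overlapped between genotypes (log2 fold changes -0.15 and -0.26, with MGST3 at 0.20 without WT replicate 1), and MGST2 was 1.15 to 2.53 CPM in 5 libraries and 4.27 CPM in Tg replicate 1.

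NQO1 encodes the quinone reductase that serves as a usual readout of Nrf2 activity. It read 18.9, 6.90 and 4.44 CPM in WT against 2.59, 2.22 and 1.35 CPM in Tg. Every Tg pool lay under every WT pool, and WT replicate 1 was far above every other library. The log2 fold change was -2.30 (standard error 0.59, FDR = 0.113 in edgeR's quasi-likelihood test) with all libraries and -1.47 without WT replicate 1. CAT, the peroxisomal catalase that also abounds in red cells, read 320.9, 196 and 181.3 CPM in WT against 143.1, 137.9 and 102.2 CPM in Tg. These too did not overlap, at a log2 fold change of -0.87 (standard error 0.25, FDR = 0.132 in edgeR's quasi-likelihood test), which was -0.56 without WT replicate 1.

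Most kidney tubule genes had negative log2 fold changes too. Of 34 tubule genes tested, 32 had a negative log2 fold change. In edgeR's quasi-likelihood test 2 passed the FDR, both lower (the transporters SLC13A1 and SLC12A3). At an unadjusted p under 0.05 in that test stood 16 lower and none higher, against 10.8% and 9.07% of all genes. DESeq2 passed 13 of the 34, all lower. SLC13A1 read 112.8, 57.3 and 52.85 CPM in WT against 6.3, 7.4 and 6.1 CPM in Tg (log2 fold change -3.49, FDR = 0.0198 in edgeR's quasi-likelihood test). Of the 34, 16 were lower without overlap, against 14.1% of all genes, and the list median was -1.102. WT replicate 1 was the highest WT pool for 29 of the 34. It was so for 24 of the 61 members, 39.3%, against 34.1% of all genes, and for 11 of the 14 members that were lower without overlap. The share among all genes that were lower without overlap was not computed, so the 11 of 14 has no like value beside it. Without WT replicate 1 the tubule median was -0.42, with 24 of 34 negative and 1 past the FDR, the log2 fold change of gsta.1 was -3.87 and the median of all members tested was -0.12. Of the tubule markers, slc22a7a was at 0 in 5 libraries and AQP8 in WT replicates 1 and 2, whereas CUBN, LRP2 and CDH17 were above 80 CPM in every library. The part of tubule or liver cells in the lower values was not tested.

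**Figure D4:**
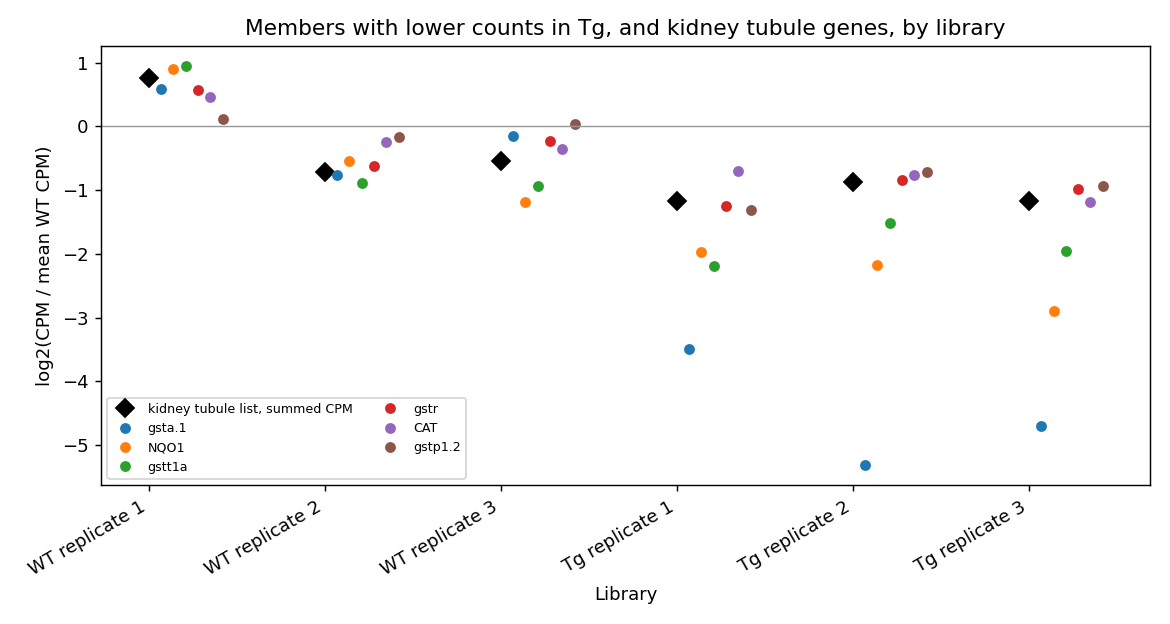
The y axis gives log2 of the CPM over the mean of the 3 WT pools, by library (x axis). Shown are the summed kidney tubule list (black diamonds) and 6 picked members that were lower in every Tg pool (coloured points). WT replicate 1 has the highest point of each of the 7 series, the tubule list and gstr, CAT and gstp1.2 lie between -0.5 and -1.5 in the Tg libraries, and gsta.1 lies under -3 in all of them.

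DESeq2, the tool that the study used, called 7 members lower and none higher of the 63 for which it gave an adjusted p, against 5.19% and 1.28% of all 21832 genes with one. The 7 were gsta.1, gstt1a, GSTZ1, NQO1, gstr, gstt1b and gstk2, and gstp1.2, CAT and gstk1 passed its FDR at less than a 2-fold change. For 6 of the 7, WT replicate 1 was the highest WT pool. The share among all genes that DESeq2 called lower was not computed, so the 6 of 7 has no like value beside it. Without that pool DESeq2 called 3 members lower, gsta.1, GSTZ1 and NQO1, all of them among the 7, with adjusted p of 3.76e-09, 0.014 and 0.0375. It then also called gstt2 and gsta.2 higher, the latter with no count in the remaining WT libraries. In that fit gstt1a, gstr, gstp1.2 and CAT were lower past the FDR of DESeq2 at less than a 2-fold change. Their adjusted p were 0.00418, 0.0263, 0.000493 and 0.0393. How many genes that fit tested is not given here, so its counts of members have no share over all genes beside them.

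No enzyme that makes or recycles glutathione passed the test with all libraries. GCLC, the catalytic subunit of the rate-limiting ligase, read 72.8, 57.9 and 60.4 CPM in WT against 62.6, 71.1 and 67.2 CPM in Tg, overlapping fully (log2 fold change 0.07, 95% interval -0.24 to 0.38). GCLM, its modifier subunit, read 42.2, 28.7 and 26.6 CPM in WT against 41.1, 43.3 and 45.5 CPM in Tg. Tg replicate 1 fell under WT replicate 1, and the interval of 0.41 ran from -0.04 to 0.87. Without WT replicate 1 the log2 fold change was 0.65 (FDR = 0.108 in edgeR's quasi-likelihood test), and DESeq2 then gave an adjusted p of 0.00095. Glutathione synthetase, GSS, had 12.7 ± 7.09 and 11.3 ± 1.38 CPM, with a log2 fold change of -0.17 that turned to 0.39 without WT replicate 1. Glutathione reductase, GSR, which returns the oxidized form to the reduced one at the cost of NADPH, had 184.8 ± 38.2 and 180.3 ± 12.5 CPM (log2 fold change -0.04, 95% interval -0.41 to 0.34).

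Glutathione peroxidases showed no member past the test. gpx1a, the cytosolic selenoenzyme that reduces hydrogen peroxide, read 231.6, 229.3 and 350.5 CPM in WT against 219.4, 356.1 and 304.5 CPM in Tg. Both genotypes spanned nearly the same range, with an interval of -0.44 to 0.67 around a log2 fold change of 0.12. GPX4, of the class that reduces lipid hydroperoxides in membranes and guards against ferroptosis, had 108.9 ± 8.37 and 96.3 ± 7.18 CPM (log2 fold change -0.18), and gpx4a 20.3 ± 7.10 and 13.5 ± 4.36 CPM (-0.59), both overlapping. gpx1b was at 41.6 CPM in WT replicate 1 and at 8.05 to 19.2 CPM in the other libraries, and its log2 fold change of -0.42 became 0.84 without that pool. GPX8, an enzyme of the endoplasmic reticulum, read 2.67, 3.59 and 3.03 CPM in WT against 2.36, 0.647 and 0.417 CPM in Tg, just without overlap, with an interval of -3.09 to 0.21. gpx9 had no count and gpx2 and gpx3 had 8 to 25 counts in the 1 or 2 libraries where they were found, so none of these was tested.

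Peroxiredoxins split in direction by small amounts. PRDX1, a cytosolic peroxiredoxin, read 544, 581.8 and 774.9 CPM in WT against 552.5, 757.6 and 855.6 CPM in Tg (log2 fold change 0.19, 95% interval -0.30 to 0.67). The second row of that name, prdx1, had 107.7 ± 19.8 and 125.1 ± 4.53 CPM, and it counts among the 5 higher members only by a difference lost in rounding, with the lowest Tg pool and the highest WT pool both at 119.9 CPM. PRDX4, the secretory pathway member, read 76.9, 78.8 and 80.5 CPM in WT against 96.2, 103.4 and 94.0 CPM in Tg. All 3 Tg values were higher and the spread within each genotype was small, at a log2 fold change of 0.31 (standard error 0.10, FDR = 0.165 in edgeR's quasi-likelihood test). prdx6, the peroxiredoxin that uses glutathione in place of thioredoxin, read 218.1, 233.2 and 201.4 CPM in WT against 177, 176.5 and 161.8 CPM in Tg. All 3 Tg values were lower, at -0.34 (standard error 0.11, FDR = 0.153 in edgeR's quasi-likelihood test), and here WT replicate 2 and not WT replicate 1 was the highest. The mitochondrial members PRDX3 and prdx5 overlapped (-0.19 and -0.22), as did SRXN1, the sulfiredoxin that repairs overoxidized peroxiredoxins, at 1.80 to 4.17 CPM.

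**Figure D5:**
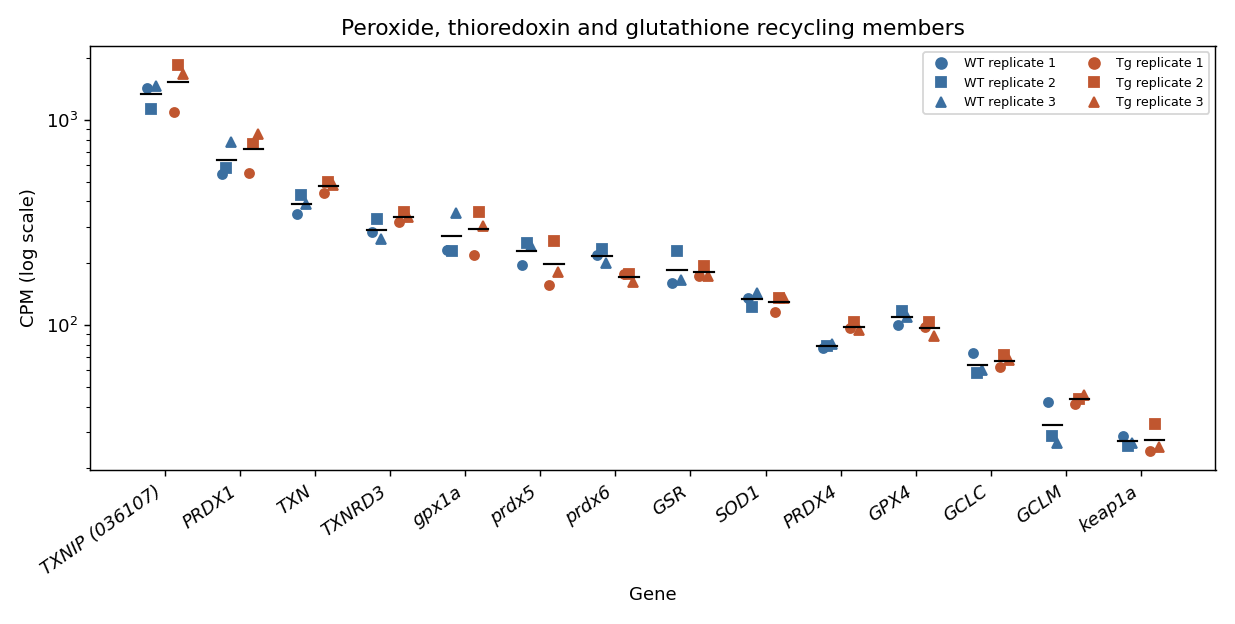
CPM on a log scale (y axis) of 14 picked members of the peroxide, thioredoxin, glutathione recycling, superoxide dismutase and Keap1 classes (x axis). WT is in blue and Tg in orange, with 1 symbol per replicate number and a line at the mean of 3 pools. Of these 14, genotypes overlap for all but TXN and PRDX4, which are higher in every Tg pool, and prdx6, which is lower in every Tg pool. Members not shown include CAT, GPX8, SOD2 and the TXNRD2 row ENSDARG00000094470, lower in every Tg pool, and prdx1, higher in every Tg pool. CPM are not corrected for transcript length, so heights are not compared between genes.

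Thioredoxin TXN read 348.9, 428.6 and 386.7 CPM in WT against 439.7, 499.8 and 481.2 CPM in Tg. The lowest Tg pool was just above the highest WT pool, at a log2 fold change of 0.29 (standard error 0.12, FDR = 0.244 in edgeR's quasi-likelihood test). The mitochondrial TXN2 had 25.5 ± 2.57 and 29.4 ± 3.42 CPM, and the second cytosolic gene, txnb, was high in WT replicate 2 (90.0 CPM) and Tg replicate 1 (74.8 CPM) and at 29.7 to 54.1 CPM elsewhere. TXNRD3, a thioredoxin reductase, had 291.6 ± 33.5 and 335.2 ± 19.9 CPM (log2 fold change 0.20, 95% interval -0.08 to 0.49). Of the 2 TXNRD2 rows, ENSDARG00000094470 read 1.29, 1.398 and 3.52 CPM in WT against 0.244, 0.788 and 1.15 CPM in Tg, lower without overlap (-1.50, 95% interval -3.28 to 0.27), and ENSDARG00000075923 overlapped (-0.34). TXNIP, which binds and inhibits thioredoxin, read 1433, 1123 and 1467 CPM in WT against 1097, 1845 and 1667 CPM in Tg (0.20, 95% interval -0.32 to 0.71), while a second TXNIP row had 16 counts in Tg and none in WT.

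Proteins that carry a thioredoxin fold without being part of the peroxide cycle made up 10 members, 6 with a positive and 4 with a negative log2 fold change. TXNDC16 read 6.57, 7.49 and 8.47 CPM in WT against 10.8, 15.4 and 10.1 CPM in Tg, with no overlap (log2 fold change 0.69, standard error 0.24, FDR = 0.187 in edgeR's quasi-likelihood test). txndc11, of the endoplasmic reticulum, was also higher in every Tg pool, at 18.9, 17.1 and 14.7 CPM in WT against 28.8, 22.0 and 19.3 CPM in Tg. TXNDC5, a disulfide isomerase, had 131.7 ± 14.5 and 116.7 ± 15.8 CPM, and the splicing factors txnl4a and TXNL4B, which the name rule takes in, overlapped between genotypes.

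Superoxide dismutases turn superoxide into hydrogen peroxide. SOD1, the cytosolic enzyme, had 133.6 ± 10.9 CPM in WT and 128.7 ± 10.9 CPM in Tg, with a narrow interval of -0.33 to 0.23 around -0.05. SOD2, the mitochondrial enzyme, read 61.9, 53.6 and 58.4 CPM in WT against 43.4, 49.3 and 45.1 CPM in Tg. All 3 Tg values were lower, at a log2 fold change of -0.34 (standard error 0.12, FDR = 0.194 in edgeR's quasi-likelihood test). Of the 2 rows named SOD3, the extracellular enzyme, 1 was under 1.2 CPM in every library and the other had 18 counts, all in WT replicate 3, the pool with the high liver genes.

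Neither Keap1 row passed the test. The row KEAP1 had 31.6 ± 2.66 CPM in WT and 34.6 ± 4.004 CPM in Tg (log2 fold change 0.13, 95% interval -0.21 to 0.47), and keap1a 27.1 ± 1.57 and 27.6 ± 4.71 CPM (0.03, 95% interval -0.34 to 0.40). The row NFE2L2, which encodes Nrf2, read 202.7, 254.1 and 221 CPM in WT against 223.7, 316.5 and 234.2 CPM in Tg (0.19, FDR = 0.572 in edgeR's quasi-likelihood test), and nfe2l2b was under 0.8 CPM in every library.

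Other genes of the Nrf2 pathway and of the oxidant response, chosen by name, gave 39 tested, of which none passed the FDR in edgeR's quasi-likelihood test. At an unadjusted p under 0.05 in that test stood 5 lower and 4 higher, against 10.8% and 9.07% of all genes. DESeq2 passed 3 lower (MSRB1, selenop and abcc2) and 2 higher (sesn2 and CBR1). Of the 39, 8 were higher and 4 lower without overlap, against 14% and 14.1% of all genes. The 3 with the smallest p were CBR1, a carbonyl reductase (0.83, FDR = 0.0759), sesn2, a stress-induced sestrin (0.79, 0.119), and the exporter of conjugates abcc2 (-1.81, 0.135), each given as its log2 fold change and FDR in that test. abcc2 read 40.03, 16.6 and 19.6 CPM in WT against 6.14, 12.2 and 3.54 CPM in Tg, with WT replicate 1 again the highest. CBR1 read 48.3, 35.4 and 38.5 CPM in WT against 63.6, 73.9 and 79.1 CPM in Tg, so the opposite order.

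Of 27 genes tested for the supply of glutathione precursors and NADPH, none passed the FDR in edgeR's quasi-likelihood test. In that test 6 were lower and 6 higher at an unadjusted p under 0.05, against 10.8% and 9.07% of all genes. Without overlap, 4 were lower and 6 higher, against 14.1% and 14% of all genes. DESeq2 passed slc3a2a and OPLAH, both lower. slc3a2a, the heavy chain of amino acid exchangers that include the cystine importer, read 149.1, 132.7 and 167.6 CPM in WT against 82.3, 94.1 and 87.4 CPM in Tg, with a clear gap and WT replicate 3 the highest (log2 fold change -0.77, FDR = 0.0571 in edgeR's quasi-likelihood test). The second heavy chain row, SLC3A2, had the opposite order, at 62.5, 57.7 and 71.2 CPM in WT against 72.8, 81.0 and 77.3 CPM in Tg (0.27, FDR = 0.28 in edgeR's quasi-likelihood test). slc7a11, the cystine importer's light chain, overlapped between genotypes (0.31, FDR = 0.559 in the same test). OPLAH, the 5-oxoprolinase that returns glutamate from the glutathione cycle, was lower in every Tg pool (-0.99, FDR = 0.108), and TALDO1, the transaldolase of the pentose phosphate pathway that supplies NADPH, was higher in every Tg pool (0.37, FDR = 0.171 in the same test).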

How the data were processed

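Poly(A) RNA of 6 libraries was sequenced as paired ends. Per the labels and methods, the authors used Cutadapt 1.9 for trimming, HISAT2 2.0.4 for alignment to GRCz11, StringTie 1.3.4d for transcript assembly and DESeq2 for testing, and edgeR also stands in the submitters' processing notes. The authors' deposited table holds raw, unnormalized whole-number counts, and the step that made them, its use of strand included, is not given in the labels or methods. Of its rows, 6474 had no count. A count of 0 allows up to 3 counts, or 0.0457 to 0.0606 CPM, which covers counting error only, since molecular identifiers are not mentioned.

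Counts were filtered with filterByExpr, scaled by TMM and tested with the quasi-likelihood test of edgeR 4.0.16 in R 4.3.3 in its default form, Tg against WT, with Benjamini-Hochberg adjustment (FDR) over the 20123 genes tested. DESeq2 1.42.0 and limma 3.58.1 (voom) served as alternatives. The step was tested on simulated data. With 3 against 3 pools, an exact permutation test of a single value cannot go below p = 0.1, so none is given. The members and lists were chosen with earlier results of these data known.

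A name table gave symbols to 28988 rows, and it gives many zebrafish genes a human symbol. Of the members, 13 share a symbol with another row, and 53 of 68 symbols are in RefSeq, which was used only for neighbours. Members were named if called, if first in their class by mean count, by p or by size of change (at a mean of at least 5 CPM), if of the glutathione, superoxide dismutase, Keap1, NQO1, SRXN1 and CAT genes, or if a count or range ended on them. Other members were named after their values were seen, gstp1.2, GSTZ1, gstt1a, gstt1b, gstt2, PRDX4, gpx1b and the GSTM3 rows among them, as were the supply and pathway genes beyond the 3 smallest p per list and the Nrf2 and slc7a11 rows.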

Additional observations from a re-analysis of the deposited data

How the results depend on the processing

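At 50767535 counts or more per library, depth left out of the test only members with few counts, such as gstk2. Counts of calls depended on the tool. The log2 fold change of gsta.1 ran from -4.97 to -3.87 over the alternatives, but its FDR did not pass with limma-voom (-4.37) or the replicate block (-4.39). RLE size factors left 3 members higher without overlap. Library size alone gave 2 members called lower, 2 past the FDR and 3 higher without overlap, with a median of -0.21, and turned keap1a to -0.048 and GCLC to -0.0037. The planned legacy form is the default in this version. The newer form, added after the data were seen, called 77 genes higher and 151 lower, with 2 members past the FDR, gsta.1 and gstp1.2. DESeq2 called 280 genes higher and 1134 lower, with 7 members called lower and 10 past the FDR. limma-voom called 23 genes higher and 25 lower and 0 members lower with or without the fold threshold, and gave gpx1b 0.031. Leaving out the thioredoxin-fold members, also added, left 3 higher without overlap. DESeq2 without WT replicate 1, added too, called 410 genes higher and 829 lower, with 2 members higher and 3 lower, 3 and 7 past the FDR, and turned GSS to 0.38, gpx1b to 0.84 and MGST3 to 0.19. Except where fewer samples loosen the overlap rule, the cause was not tested.

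Same-numbered pools deviated from their group means with correlations of -0.09, -0.14 and 0.13, and not every pool correlated best with its own number. These values cannot settle whether pools of the same number were prepared together. With the replicate number as a block, 0 genes were called higher and 1 lower, 0 members were called lower or past the FDR, and gpx1b was at 0.013.

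Leaving out 1 library at a time gave 0 to 28 genes called higher and 0 to 60 lower, 0 to 1 members called lower and 0 to 1 past the FDR, and 5 to 13 members higher without overlap. Log2 fold changes then ran from -0.44 to 0.39 for GSS, from -0.13 to 0.15 for GSR, from -0.12 to 0.11 for keap1a, from -0.12 to 0.016 for SOD1, from -0.047 to 0.33 for gpx1a, from -0.81 to 0.84 for gpx1b, from -0.41 to 0.20 for MGST3, from -0.90 to 0.27 for MGST2 and from -0.23 to 0.10 for gsto2. The log2 fold change of gsto1 ran from -0.37 to 0.70, of gstk4 from -0.54 to 0.32 and of TXNDC12 from -0.12 to 0.046. That of TXNL4B ran from -0.020 to 0.40 and of the SOD3 row ENSDARG00000079183 from -0.13 to 0.54. No other direction turned among the members tested with all libraries. The other filters on low counts changed no direction and no count by over 1.5 times. RefSeq symbols in place of the name table were not run.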
